A study of Mus musculus with 6 samples.

Results

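Pericyte-marker cells of the mouse hypothalamus were taken from single-cell Drop-seq libraries as cells that held at least 2 UMIs summed over Kcnj8, Vtn, Abcc9 and Rgs5. A UMI (unique molecular identifier) counts 1 captured transcript. Members also had at least 300 genes, at most 20% of UMIs in mitochondrial genes, at most 1 UMI over the smooth muscle genes Acta2, Tagln and Myh11, and at most 1 UMI over Snap25, Syt1, Mog, C1qa, Dcn and Agt. The rule found 486 of 9449 passing cells (5.14%, 95% Wilson interval 4.72% to 5.61%). The numbers were 73, 68 and 169 in libraries KO1, KO2 and KO3, against 70, 46 and 60 in WT1, WT2 and WT3. A single barcode among the members also occurred in another library.

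The 3 KO libraries came from the hypothalamus of mice lacking IDOL, the ubiquitin ligase encoded by Mylip, and the 3 WT libraries from wild-type mice. All were of strain C57BL/6J and 8 weeks of age. The labels name neither the deleted part of Mylip nor the animals behind each library, so p-values measure the spread between libraries. The genotypes were mixed over 2 Drop-seq days, and no label ties a library to its day. Libraries held 1670993 to 4068886 UMIs in all, and the members of a library held 50391 to 185579.

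Pericytes are mural cells that sit on the outside of capillaries, inside the basement membrane they share with the endothelium. Endothelial PDGF-B, acting on the receptor encoded by Pdgfrb, draws them to the vessel, and in the brain they help to maintain the blood-brain barrier. Kcnj8 and Abcc9 encode the pore and the regulatory subunit of an ATP-sensitive potassium channel, Rgs5 an inhibitor of G-protein signalling, and Vtn the adhesive glycoprotein vitronectin.

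The members carried pericyte transcripts by definition, but most of them carried endothelial transcripts as well, so the name pericyte describes the rule more than the whole content of these cells. At least 1 UMI of Cldn5, a tight junction protein, or Flt1, a VEGF receptor, was found in 396 of the 486 members (81.5%, 95% Wilson interval 77.8% to 84.7%). These 396 are called carriers here and the other 90 non-carriers. Carriers numbered 60, 53 and 143 in KO1, KO2 and KO3, against 47, 41 and 52 in WT1, WT2 and WT3. Non-carriers numbered 13, 15 and 26 in the KO libraries, against 23, 5 and 8 in the WT libraries. Intervals and floors given here cover counting error only.

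Free RNA in droplets gives stray UMIs, and its level was read from cells that should lack both genes. Among 1984 neuron-marker cells, defined by at least 2 UMIs over Snap25 and Syt1 and at most 1 over the 4 pericyte genes, 1.92% had a Cldn5 or Flt1 UMI (1.40% to 2.62%) at a median of 2182.5 UMIs per cell. Members had a median of 793 UMIs, with 924 in carriers and 490 in non-carriers. When every cell was thinned to 500 UMIs, 77.5% of the 355 cells that met the rule were carriers, against 0.637% of 1885 thinned neuron-marker cells. The thinning left out 96 members with fewer UMIs. As the median was 490 UMIs in non-carriers and 924 in carriers, it left out a larger part of the non-carriers. The 77.5% therefore describes the deeper cells only. At 500 UMIs the carrier share was thus above the share of neuron-marker cells with such a UMI. Whether free RNA in the droplets of members was at the level read from neuron-marker cells was not tested. Scrublet, a doublet caller, marked 4 members (0.823%), all of them carriers, against 120 of 9449 passing cells (1.27%). The expected rate was set at 5%. Whether Scrublet could mark droplets that held a pericyte and an endothelial cell was not tested.

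**Figure D1:**
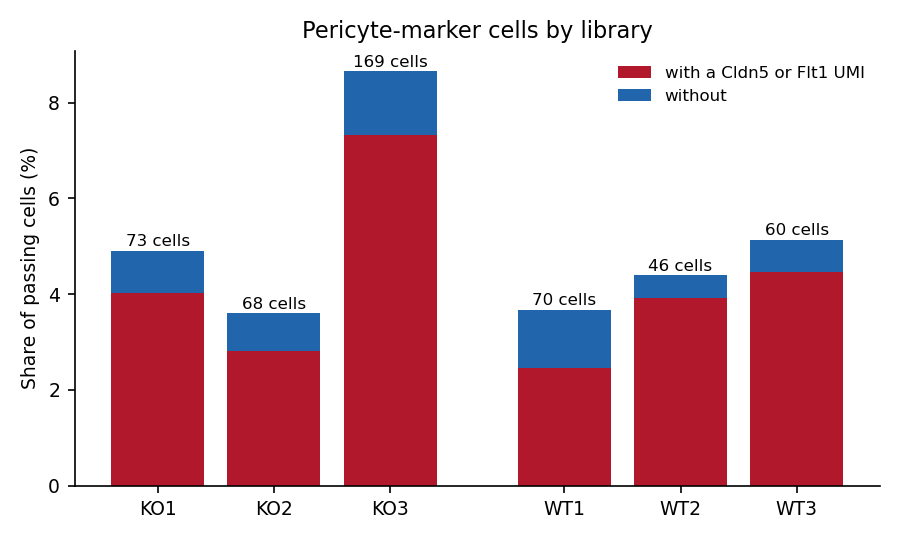
Share of passing cells (%) that were pericyte-marker cells in each library, split into members with (red) and without (blue) a Cldn5 or Flt1 UMI, with the number of members above each bar. Red made up most of every bar, and KO3, with 169 members, had the tallest.

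The carriers held endothelial transcripts within the range of the endothelial cell libraries or just above it. The comparison class of 450 endothelial cells had at least 2 UMIs over Cldn5 and Flt1 and at most 1 over the 4 pericyte genes, under the same limits for other types. Summed over 20 other endothelial genes, counts per 1000000 UMIs (CPM) averaged 41020 ± 4349 in carriers and 10680 ± 6283 in non-carriers (SD, n = 6 libraries each). The same sum was 32870 ± 11100 CPM in the endothelial cells and 13290 ± 5450 CPM in 191 smooth muscle cells, defined by at least 2 UMIs over Acta2, Tagln and Myh11. The smooth muscle definition sets no limit on pericyte genes, and 98 of the 191 also had at least 2 pericyte UMIs. In all other passing cells it was 3262 ± 1216 CPM. Of the 450 endothelial cells, 24 with a median of 3888.5 UMIs held 928.6 CPM of the 20 genes, which lowers the mean of that class, and the other 426 held 48560 CPM. A library sum weights cells by their UMIs. A single cell of the 24 held 43759 of the 126415 endothelial UMIs of KO2, and another held 25951 of the 127665 of WT1. Means of the endothelial cells given below for other genes include these 24 cells. The lowest carrier library, at 36580 CPM, lay above the highest non-carrier library, at 20060 CPM.

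Each of the 20 endothelial genes was higher in carriers than in non-carriers, where 54.7% of 7405 genes with at least 10 UMIs in the members were. The split was made on endothelial transcripts, so this count is a description. Ly6c1, a surface protein of brain endothelium, averaged 6117 ± 1432 CPM in carriers and 1671 ± 1246 CPM in non-carriers. Slco1a4, an organic anion transporter of the blood-brain barrier, averaged 3110 ± 638 CPM in carriers and 506 ± 338 CPM in non-carriers. Slc2a1, the barrier's glucose transporter, averaged 2792 ± 640 CPM in carriers and 738 ± 457 CPM in non-carriers. In all 6 libraries these 3 genes were higher in carriers. Against the endothelial cells the direction depended on the 24 cells with few endothelial transcripts. Over all 450 cells each of the 20 genes was higher on average in carriers, but the 426 cells without those 24 held more in sum, at 48560 CPM, than the carriers, at 41750 CPM in the 389 with over 10000 CPM.

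Pericyte genes that the rule did not use were present in both parts, and denser in non-carriers. Of 34 such genes the sum was 4924 ± 933 CPM in carriers and 13720 ± 2844 CPM in non-carriers. It was 619 ± 207 CPM in endothelial cells, 4862 ± 1556 CPM in smooth muscle cells and 579 ± 233 CPM in all other cells. Thus carriers stood about level with smooth muscle cells and well above endothelial cells. Not every cell held them. A UMI of these genes was found in 311 of 396 carriers (78.5%), 81 of 90 non-carriers (90.0%) and 173 of 450 endothelial cells (38.4%). Of the 32 genes with at least 10 UMIs, 31 were lower in carriers than in non-carriers (background 45.3%), with a median ratio of 0.332, against 0.997 over all 7405 genes. Foxf2, a transcription factor of brain pericytes, was the gene that was not. It averaged 151 CPM in carriers and 103 CPM in non-carriers, and 120 CPM in endothelial cells.

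Few carriers had a low endothelial sum. At a level of 10000 CPM over the 20 endothelial genes, chosen after the values were seen, 389 of 396 carriers lay above and 7 at or under it. Of the 90 non-carriers, 25 lay above it, with a summed 30340 CPM, so the absence of Cldn5 and Flt1 did not mark absence of other endothelial transcripts. The 65 non-carriers at or under the level held 1679 CPM of endothelial genes and 14690 CPM of the other pericyte genes. They numbered 9, 8 and 20 in KO1, KO2 and KO3, against 20, 4 and 4 in WT1, WT2 and WT3. Pericyte transcripts with few endothelial ones were therefore found in 65 of the 486 members, plus 7 carriers.

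**Figure D2:**
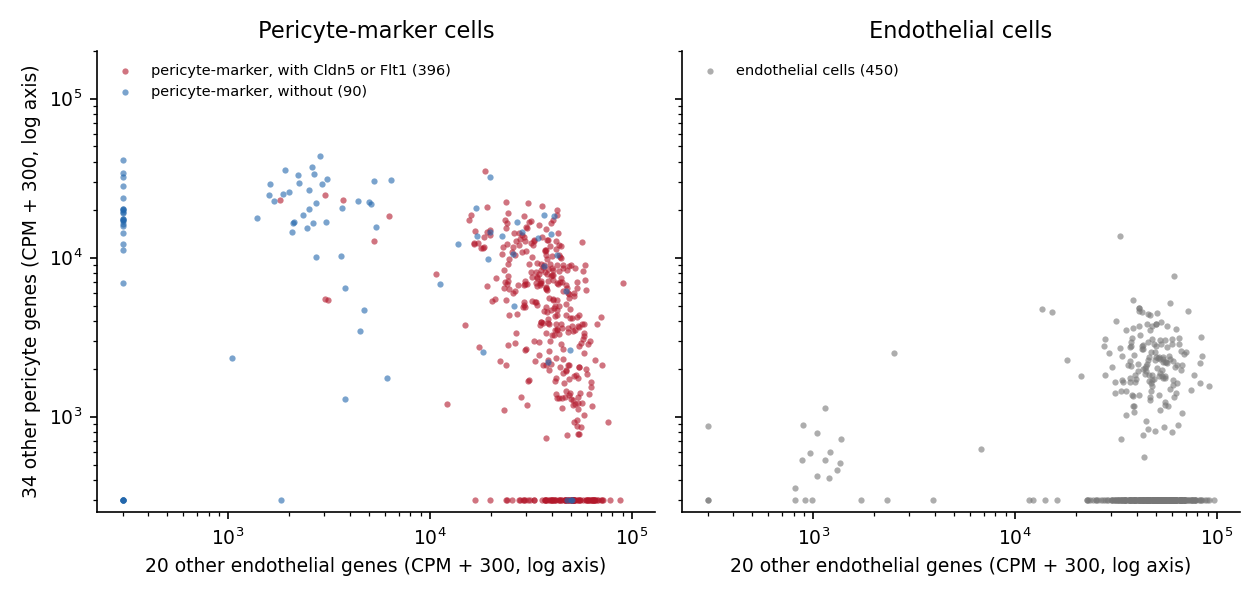
Each point is a cell, with the summed CPM of 20 endothelial genes across and of 34 pericyte genes upward, both + 300 on log axes, for the 396 carriers and 90 non-carriers (left) and 450 endothelial cells (right). Above 10000 CPM across lie 389 carriers and 426 endothelial cells, most carriers with more pericyte transcripts, and 65 non-carriers lie to the left of 10000 CPM.

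The rule genes were detected unequally. Rgs5 was found in 470 of 486 members (96.7%), Vtn in 286, Kcnj8 in 130 and Abcc9 in 112. Rgs5 was at 5928, 7244 and 4176 CPM in the members of KO1, KO2 and KO3, against 5376, 5854 and 5595 CPM in WT1, WT2 and WT3. Vtn was at 1772, 3146 and 1633 CPM in KO, against 2437, 1131 and 1748 CPM in WT. For both genes the genotypes overlapped.

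Kcnj8 and Abcc9 lie next to each other on chromosome 6 (GRCm38, GENCODE M21), Kcnj8 at chr6:142564837-142571614 and Abcc9 at chr6:142587862-142702315, both on the minus strand and 16247 bases apart. Kcnj8 was at 368, 449.5 and 404 CPM in KO1, KO2 and KO3, against 665, 218 and 495 CPM in WT1, WT2 and WT3. Abcc9 was at 286, 415 and 253 CPM in KO, against 490, 139 and 175 CPM in WT. WT1 was highest and WT2 lowest for both, and the KO libraries lay between them. UMIs of both subunits were found together in 53 members (10.9%). Per library, Kcnj8 and Abcc9 were each higher in non-carriers than in carriers in all 6. Kcnj8 averaged 317 CPM in carriers and 1153 CPM in non-carriers, and Abcc9 217 CPM and 842 CPM in the same order. The rule asks for 2 UMIs of the 4 genes at any depth, and the median was 490 UMIs in non-carriers and 924 in carriers. Cells with fewer UMIs thus enter at a higher CPM of rule genes, so this is a description. In WT2 it rests on 5 non-carriers with 3281 UMIs.

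Members that owed their place to Rgs5 alone formed a large share. In 172 members (35.4%, 95% Wilson interval 31.3% to 39.7%) Rgs5 was the only one of the 4 genes, with a median of 3 UMIs. Of these, 164 (95.3%) were carriers, against 232 of the 314 members (73.9%) that had Kcnj8, Vtn or Abcc9. The Rgs5-only members held 1445 CPM of the 34 other pericyte genes, against 7950 CPM in the 314, and the ranges over libraries were 805.5 to 2797 CPM and 5848 to 9341 CPM. Their endothelial sum was 45490 CPM, against 33780 CPM in the 314. The 426 endothelial cells over 10000 CPM held 776.5 CPM of the 34 genes and 48560 CPM of the endothelial ones. A UMI of the 34 genes was found in 93 of the 172 (54.1%), against 299 of the 314 (95.2%). Rgs5-only members occurred in every library, numbering 30, 18 and 62 in KO1, KO2 and KO3, against 23, 22 and 17 in WT1, WT2 and WT3.

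The make-up of the pericyte transcripts also differed between the parts. For every 100 UMIs of Rgs5, carriers held 29.4 of Vtn, 6.60 of Kcnj8 and 4.34 of Abcc9. Non-carriers held 69.5 of Vtn, 16.7 of Kcnj8 and 11.4 of Abcc9 per 100. Smooth muscle cells held 14.1 of Vtn, 1.41 of Kcnj8 and 0.619 of Abcc9. Endothelial cells, whose pericyte UMIs the definition limits to 1, held 89 UMIs of Rgs5 in all and 4, 1 and 1 of Vtn, Kcnj8 and Abcc9. Rgs5 thus made up more of the 4 genes' UMIs in carriers than in non-carriers, and most of them in endothelial cells. In neuron-marker cells Rgs5 averaged 4.01 CPM, with a UMI in 0.958% of cells.

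The threshold lay on a slope. At exactly 2 pericyte UMIs, just inside the rule, 70 members held 1541 CPM of the 34 other pericyte genes, and 165 cells just outside it, with 1 UMI, held 1006 CPM. With 3 to 5 UMIs (151 members) the sum was 2755 CPM, with 6 to 10 (126 members) 6898 CPM, and above 10 (139 members) 8758 CPM. Within the rule the endothelial sum was lower at each step, at 45280, 42030, 36390 and 32610 CPM, but the 165 cells just outside it had the lowest, at 22470 CPM. In all, 704 passing cells had at least 2 pericyte UMIs. The smooth muscle limit alone left out 98 of them, the limit on other cell types alone 89, and both together 31.

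Outside the rule, genes with a large ratio of mean CPM in members to all other cells named both cell types. As members were chosen by their transcripts, these are descriptions. Atp13a5 averaged 352 CPM in members and 6.93 CPM in all other cells, a ratio of 50.8. It encodes a P-type ATPase, P2ry14 (ratio 43.6) the receptor for UDP-glucose, and Slc6a20a (27.7) a proline transporter. Art3, Higd1b, Pla1a, Enpep, Ifitm1, Cox4i2 and Ndufa4l2 had ratios from 24.3 to 47.5. Each of these 10 genes was lower on average in carriers than in non-carriers.

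A further 9 of the 20 genes with the largest ratios were also found in endothelial cells. Emcn, endomucin, averaged 499 CPM in carriers and 277 CPM in non-carriers, and Nostrin, which binds endothelial nitric oxide synthase, 806 CPM in carriers and 200 CPM in non-carriers. Tecrl, Slc19a3, Car5a, Slc35f2 and Thsd1 had 31, 48, 34, 58 and 63 UMIs in carriers. In non-carriers all 5 were at 0 of 56757 UMIs, which allows up to 52.9 CPM. Car4, a carbonic anhydrase, and Slc22a8, an organic anion transporter, were near equal in the parts, Car4 at 1155 CPM in carriers and 1117 CPM in non-carriers.

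**Figure D3:**
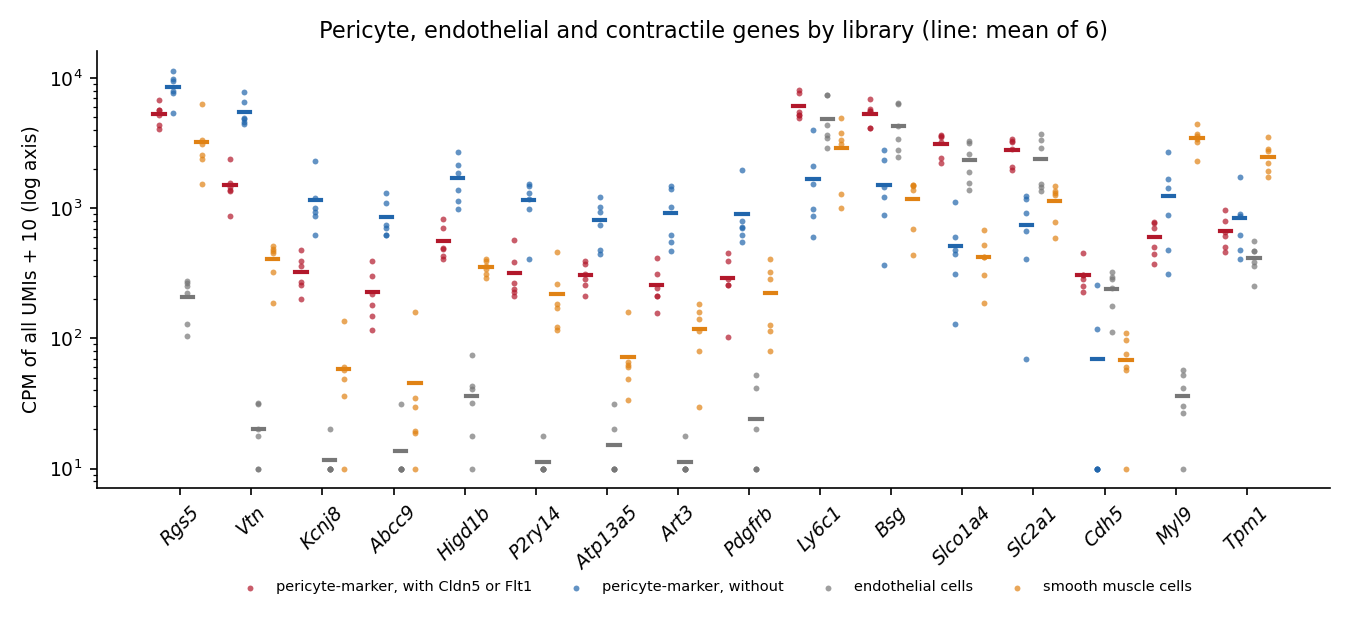
CPM of all UMIs (+ 10, log axis) of 16 genes in each library for carriers, non-carriers, endothelial cells and smooth muscle cells, with a line at the mean of 6 libraries. From Rgs5 to Pdgfrb the non-carriers are highest and the endothelial cells lowest, from Ly6c1 to Cdh5 the carriers lie above the non-carriers on average, and Myl9 and Tpm1 are highest in smooth muscle cells.

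Receptors and transporters of the pericyte list were seen in both parts. Pdgfrb was at 149.9, 657 and 420.3 CPM in the members of KO1, KO2 and KO3, against 338, 298 and 277 CPM in WT1, WT2 and WT3. The KO libraries lay on both sides of the WT ones. By part it averaged 282 ± 122 CPM in carriers and 890 ± 539 CPM in non-carriers, against 213 ± 134 CPM in smooth muscle cells and 14.04 ± 18.6 CPM in endothelial cells. Higd1b, a hypoxia-inducible domain family gene, averaged 552 ± 171 CPM in carriers and 1699 ± 664.5 CPM in non-carriers. Il1rl1 had no UMI in the members. Rgs4, a further inhibitor of G-protein signalling, was lower in members than in smooth muscle cells in all 6 libraries, at means of 473 CPM and 1142 CPM.

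Genes of contraction and vessel tone were lower on average in members than in smooth muscle cells, which were themselves chosen by contractile genes, so this is a description. Of the 19 with at least 10 UMIs, 3 were higher on average in members than in smooth muscle cells (background 59.0% of 7405 genes), and the median ratio was 0.381, against 1.12 over those genes. The 3 genes that define the smooth muscle cells are not in this list. Endothelial genes ran the other way, with 20 of 20 higher in members and a median ratio of 2.95. In non-carriers alone 11 of the 20 were higher than in smooth muscle cells. Their median ratio was 1.07, against 0.968 over the 7405 genes. Myl9, the myosin regulatory light chain, averaged 677 CPM in members and 3445 CPM in smooth muscle cells, and Tpm1, a tropomyosin, 688 CPM and 2493 CPM in the same order. Cald1, the actin-binding protein caldesmon, averaged 1999 ± 302 CPM in carriers, 4395 ± 387 CPM in non-carriers and 4621 CPM in smooth muscle cells. Gucy1b3, a subunit of the nitric oxide receptor guanylate cyclase, averaged 339 CPM in members, 424 CPM in smooth muscle cells and 4.06 CPM in endothelial cells. Cnn1, Actg2, Adra2a, Abcc8 and Ptger3 had no UMI in members.

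Recruitment signals were split between the parts. Ptn, the growth factor pleiotrophin, averaged 2564 ± 545 CPM in carriers and 5667 ± 1721 CPM in non-carriers, and was lower in carriers in all 6 libraries. Cxcl12, a chemokine, averaged 1989 ± 353 CPM in carriers and 401.5 ± 367 CPM in non-carriers, and was higher in carriers in all 6. Endothelial cells had 1512 CPM of Cxcl12. Tgfbr2, a TGF-beta receptor, averaged 177 CPM in members, and Notch3, the Notch receptor of mural cells, 104 CPM. Il34, a ligand of the CSF1 receptor, averaged 83.9 CPM in carriers and 494.5 CPM in non-carriers and was at 0 in endothelial cells.

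Basement membrane and matrix genes differed less between the parts. Their sum over 31 genes was 19010 ± 743 CPM in carriers and 20990 ± 1808 CPM in non-carriers. Sparc, a collagen-binding matrix protein, averaged 3518 CPM in carriers and 3113 CPM in non-carriers, and Igfbp7 3386 CPM and 3228 CPM in the same order. Timp3, an inhibitor of matrix proteases, averaged 2418 ± 342 CPM in carriers and 1210 ± 930 CPM in non-carriers. Lama2, a laminin chain, averaged 62.8 CPM in carriers and 247 CPM in non-carriers and was at 0 in endothelial cells.

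Among transport and metabolic genes, Slco1c1, a thyroid hormone transporter of the blood-brain barrier, was at 1581, 1573 and 1476 CPM in the members of KO1, KO2 and KO3, against 1026, 1965 and 1632 CPM in WT1, WT2 and WT3. The KO libraries lay within the WT range. Slco1c1 averaged 1660 ± 259 CPM in carriers and 524 ± 559 CPM in non-carriers, and was higher in carriers in all 6 libraries. Glul, glutamine synthetase, averaged 1296 ± 213 CPM in carriers and 802 ± 648 CPM in non-carriers, with 4 of 6 libraries higher in carriers. Astrocytes also express Glul. The sum of 11 astrocyte markers was 439 ± 108 CPM in carriers and 1803 ± 917 CPM in non-carriers, with Gfap at 0 in both.

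Transcripts of further cell types followed the split. Haemoglobin and other red cell genes (5 genes) summed to 4791 ± 2603 CPM in carriers and 223 ± 193 CPM in non-carriers, and to 4539 ± 4308 CPM in endothelial cells. Fibroblast markers (12 genes) summed to 1996 ± 855 CPM in carriers and 5536 ± 2552 CPM in non-carriers, with Lum at 0 in both. Oligodendrocyte markers (11 genes) summed to 2322 ± 741 CPM in carriers and 1309 to 15510 CPM in non-carrier libraries, the highest in KO3. Immediate early genes (23 genes) summed to 22520 ± 2831 CPM in carriers and 11340 ± 7386 CPM in non-carriers. The part of these transcripts in the differences between carriers and non-carriers was not tested.

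Members made up 5.72 ± 2.62% of passing cells in KO and 4.40 ± 0.733% in WT (SD, n = 3 libraries each; two-sided exact permutation p = 0.7). KO3 was highest, at 8.65%, and without it the difference of 1.31 percentage points became -0.152. Carriers were 81.6 ± 3.38% of members in KO and 81.0 ± 12.1% in WT (exact permutation p = 1), with WT1 lowest at 67.1%. Median UMIs per member were 744 ± 104 in KO and 865 ± 107 in WT (exact permutation p = 0.2). With 3 libraries against 3 no p can fall below 0.1, and adjusted over the 10 comparisons of this kind these values were 0.875, 1 and 0.857. There were 1.13 ± 0.275 members per endothelial cell in KO and 0.991 ± 0.0160 in WT (exact permutation p = 0.4).

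The deleted gene, Mylip (chr13:45389742-45412022, GRCm38), had 0, 0 and 0 UMIs in the members of KO1, KO2 and KO3, against 8, 3 and 8 in WT1, WT2 and WT3. The groups did not overlap, and against a floor of 3 UMIs over the KO group Mylip was at least 9.80-fold lower in KO. Over all passing cells it had 2, 0 and 0 UMIs in KO, against 68, 27 and 44 in WT. It was too sparse in members for the gene filter of the test across genes. Of the WT UMIs, 16 were in carriers and 3 in non-carriers.

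No gene passed the test between KO and WT in members. UMIs were summed over the members of each library and tested with edgeR's quasi-likelihood test, Benjamini-Hochberg adjusted. Of 1462 genes tested, 0 (0%) passed at an adjusted p under 0.05, and 69 (4.72%) had an unadjusted p under 0.05, 38 higher (2.6%) and 31 lower (2.12%) in KO. DESeq2 called 0, with 30 (2.05%) at an unadjusted p under 0.05. Leaving out KO1, KO2 or KO3 gave 3, 6 and 3 called genes, and leaving out WT1, WT2 or WT3 gave 1 each, Ptgds. In simulated data the test recovered 42.0% of genes changed 2-fold and 96.0% of those changed 4-fold, with 11 false calls among 1555 genes. The simulation gave every gene the same dispersion (spread between libraries beyond counting error), 0.0425. Its rates therefore cannot be carried over to genes that vary more, such as those with most UMIs in few cells. In the 450 endothelial cells 0 of 1788 genes (0%) passed, with 25 (1.4%) at an unadjusted p under 0.05. These sums included the 24 cells with few endothelial transcripts and a median of 3888.5 UMIs. They numbered 3, 5 and 3 in KO1, KO2 and KO3, against 8, 4 and 1 in WT1, WT2 and WT3. In KO2 a single one of them held 43759 of the 126415 UMIs summed, and in WT1 another held 25951 of 127665. The sums of these libraries thus held much RNA from cells with few endothelial transcripts. The endothelial test was not repeated without them.

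Igf2, a growth factor, had the smallest p. It was at 599.6, 605 and 1363 CPM in KO1, KO2 and KO3, against 478, 238 and 291 CPM in WT1, WT2 and WT3. All KO libraries were above all WT ones, and the log2 fold change was 1.37 ± 0.33 (SE; edgeR adjusted p = 0.480, from 0.00376 to 0.999 over the alternatives). It passed without KO1, without KO2 and with no gene filter. The log2 fold change was 0.825 without KO3. It was lowest, at 0.477, in members with at least 2 of the 4 pericyte genes (edgeR adjusted p = 0.989). Igf2 is also in the fibroblast list, whose sum was 2099 to 3643 CPM in KO and 1449 to 2846 CPM in WT, and 3 members held 36.5% of its UMIs. The part of fibroblast transcripts in this difference was not tested. Ogn, the matrix proteoglycan osteoglycin, was at 409, 121 and 312.5 CPM in KO, against 175, 59.5 and 72.8 CPM in WT, and the groups overlapped. Without KO2 it passed (edgeR adjusted p = 0.0303).

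Hes1, a Notch target, was at 436, 363 and 221 CPM in the members of KO1, KO2 and KO3, against 128, 218 and 102 CPM in WT1, WT2 and WT3. The groups did not overlap, though KO3 was close to WT2, and the log2 fold change was 1.18 ± 0.37 (edgeR adjusted p = 0.848). Ppp1r12c, a regulatory subunit of myosin phosphatase, was at 149.9, 242 and 221 CPM in KO, against 81.6, 39.7 and 87.4 CPM in WT (log2 fold change 1.498 ± 0.44). Hspa1a, a heat shock protein, and Rps21, a ribosomal protein, were also higher in every KO library, with log2 fold changes of 1.01 and 0.83. None of the 4 had an adjusted p under 0.848. Over the tested genes, groups did not overlap for 147 (10.1%), of which 76 were higher (5.2%) and 71 lower (4.86%) in KO.

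On the lower side, 8430408G22Rik was at 40.9, 34.6 and 215.5 CPM in KO1, KO2 and KO3, against 419.8, 99.2 and 670.2 CPM in WT1, WT2 and WT3. The groups overlapped through KO3 and WT2. Its log2 fold change was -1.68 ± 0.47 (adjusted p = 0.848 in edgeR), and without KO3 it passed at a log2 fold change of -3.34. Pik3ip1, an inhibitor of PI3-kinase, was at 109, 138 and 242.5 CPM in KO, against 396.5, 437 and 277 CPM in WT (log2 fold change -1.01 ± 0.33). Cd200, a surface ligand that restrains myeloid cells, Pitpnb, a phosphatidylinositol transfer protein, Pglyrp1, a peptidoglycan-binding protein, and Rgcc had log2 fold changes from -1.23 to -0.71. In each of these 4 all KO libraries were below all WT ones.

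**Figure D4:**
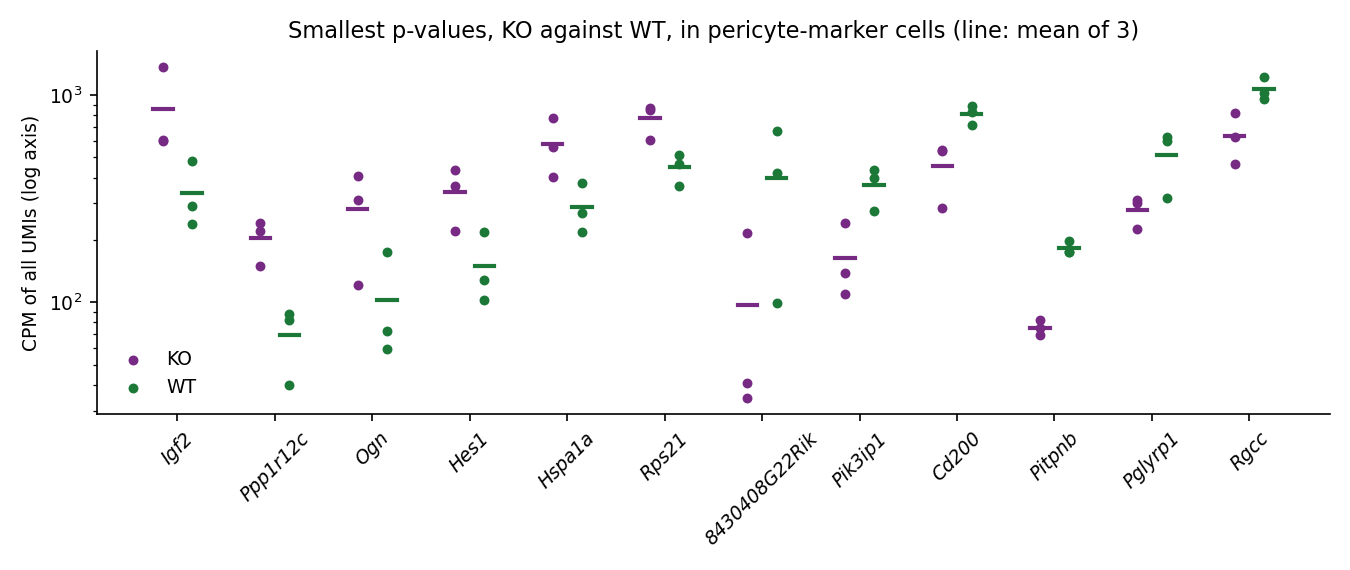
CPM of all UMIs (log axis) in the members of each KO (purple) and WT (green) library for the 6 genes with the smallest p in each direction, with a line at the mean of 3. The groups do not overlap for 10 of the 12 genes, Ogn and 8430408G22Rik being the exceptions, and none passed the test. Choice by small p favours such separation, which was seen in 147 of all 1462 tested genes (10.1%).

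No list had a member that passed. Of the 34 other pericyte genes 15 were tested, with 7 higher and 8 lower in KO and a median log2 fold change of -0.02, against 0.00 over all 1462 genes. P2ry14 had the smallest p of these, at 313, 380.3 and 242.5 CPM in KO, against 559.8, 337 and 597 CPM in WT, and the groups overlapped (log2 fold change -0.73 ± 0.31, edgeR adjusted p = 0.875). Foxc1, a transcription factor of mural cells, was at 313, 328.5 and 296 CPM in KO, against 209.9, 159 and 248 CPM in WT, with no overlap (log2 fold change 0.59 ± 0.31, edgeR adjusted p = 0.923).

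Of 9 tested genes of contraction and tone 7 were higher in KO, at a median log2 fold change of 0.14. Mylk, myosin light chain kinase, was at 204, 173 and 232 CPM in KO, against 139.9, 119 and 72.8 CPM in WT (edgeR adjusted p = 0.923). Among recruitment genes 7 of 8 were higher, with a median of 0.50, Hes1 being the highest. Matrix genes had 10 of 18 higher and a median of 0.04, and transport genes 7 of 13 and a median of 0.03. Of all tested genes 49.9% were higher and 50.1% lower in KO.

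The 20 endothelial genes other than Cldn5 and Flt1 were lower in sum in the members of every KO library. The 20 genes came to 33810, 33760 and 36830 CPM in KO1, KO2 and KO3, against 38440, 37900 and 44070 CPM in WT1, WT2 and WT3. Cldn5 and Flt1 went the other way, each at a log2 fold change of 0.158. Their sum was 4933, 4702 and 4844 CPM in KO, against 3639, 5418 and 4269 CPM in WT, and the groups overlapped. Of 21 endothelial genes tested, Cldn5 and Flt1 among them, 13 were lower in KO, 3 of them with groups that did not overlap (background 4.86% of all tested genes), and the median log2 fold change was -0.05. Slc2a1 was at 1881, 1850 and 2640 CPM in KO, against 2659, 3076 and 3249 CPM in WT (log2 fold change -0.46 ± 0.23, edgeR adjusted p = 0.923).

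Genes induced by glucocorticoids showed a sum of 3966, 3302 and 3788 CPM in the members of KO1, KO2 and KO3, against 5283, 4425 and 4997 CPM in WT1, WT2 and WT3. The groups did not overlap. Of 8 genes tested 7 were lower in KO, against 50.1% of all tested genes, and the median log2 fold change was -0.37. Only 1 of the 8 had groups that did not overlap, and none passed. Cdkn1a, a cell cycle inhibitor, was at 818, 259 and 275 CPM in KO, against 723, 496 and 1501 CPM in WT, so that KO1 lay within the WT range. It passed without KO1 (edgeR adjusted p = 0.00414).

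The lipoprotein receptors that IDOL marks for breakdown were too sparse to test. Among IDOL and LXR target genes Scd2, Apoe and Pltp were tested, and none passed. Apoe was at 968, 899 and 2452 CPM in KO, against 1749, 1111 and 1180 CPM in WT, with KO3 above and the other KO libraries below the WT ones. None of 21 cholesterol synthesis genes reached the filter. Their sum was 380.3 to 463 CPM in KO and 437 to 536.5 CPM in WT.

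Whether genotype acted differently in members and endothelial cells was tested as an interaction with library as a block, and 0 of 1985 genes (0%) passed in edgeR, with 40 (2.02%) at an unadjusted p under 0.05. The endothelial class included the 24 cells with few endothelial transcripts, which weigh heavily in the sums of KO2 and WT1. The interaction test was not repeated without them. Ptgds, prostaglandin D synthase, had the smallest p. It was at 2930, 69.1 and 9861 CPM in the members of KO1, KO2 and KO3, against 70.0, 39.7 and 58.3 CPM in WT1, WT2 and WT3, and KO2 lay within the WT range. Of its 2061 UMIs in members, 3 cells held 1428 (69.3%). The interaction was 4.48 ± 1.04 on the log2 scale (edgeR adjusted p = 0.507), and it passed without KO2, without WT3, with no gene filter, and with only non-carriers as members. Hes1 and Ptprr, a protein tyrosine phosphatase, followed with unadjusted p of 0.00298 and 0.00586.

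Genes at 0 in a whole group were named by rule where the other group had UMIs in all 3 libraries and at least 10. Beside Mylip, mt-Nd3, which encodes part of NADH dehydrogenase, had 9, 14 and 3 UMIs in the members of KO1, KO2 and KO3, against 0, 0 and 0 in WT, at least 5.60-fold higher in KO. Over all passing cells mt-Nd3 had 1160 UMIs in KO libraries and 0 in WT libraries, so the difference was not limited to members. The other 11 genes, among them Arhgap23, Nfatc1, Vangl2 and Tmem39a, had 10 to 15 UMIs in KO and 0 in WT, which is at least 2.15-fold to 3.23-fold. No such gene other than Mylip was at 0 in KO. The members held 316804 UMIs in KO and 204776 in WT, so that a 0 was likelier in WT. Over all passing cells these 11 genes were detected in both genotypes, from Nfatc1, at 106 UMIs in KO and 46 in WT (2.04-fold higher per UMI, 95% counting interval 1.43 to 2.95), to Apbb1, at 891 UMIs in KO and 899 in WT (1.14-fold lower, 1.04 to 1.25). Rcbtb2, Odf2l, Tmem39a and Vangl2 had intervals that included 1.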

How the data were processed

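Drop-seq, a droplet method that tags transcript 3′ ends, was applied to dissociated mouse hypothalamus (3 KO and 3 WT libraries). The authors deposited 1 table of raw UMI counts for 18204 genes and 13994 barcodes, each barcode with at least 200 genes. Per the submitters' processing notes, bcl2fastq, STAR 2.5.0c and builds mm10 and GRCm38 were used; the counting program, annotation, strand setting and barcode choice are not given in the sources used here. Without a stated strand setting, overlapping genes cannot be told apart. Of the symbols, 93.9% matched GENCODE M21, which gave coordinates.

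Cells passed with at least 300 genes and at most 20% mitochondrial UMIs. Doublets were called by Scrublet in scanpy 1.11.5 (expected rate 5%) per library and kept, except in an alternative. CPM are UMIs per 1000000 of all UMIs of a class in a library, not divided by length, so levels are compared within a gene only. Library sums of UMIs entered the quasi-likelihood test of edgeR 4.0.16 (R 4.3.3) after filterByExpr and TMM scaling, a step checked on simulated counts. DESeq2 1.42.0 served as an alternative. Shares were compared by exact permutation over libraries.

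Fold changes are KO over WT, and SE is the log2 fold change divided by the root of F. Named genes were those of the rule with Cldn5, Flt1 and Mylip; the 6 smallest p in each direction between genotypes; the 20 largest ratios of members to all other cells with UMIs in 6 libraries and at least 30 in all; the 5 highest members of each gene list and Pdgfrb; the 3 smallest interaction p; and genes at 0 in 1 group. Foxf2, Foxc1, Mylk, Il34, Notch3, Lama2 and Gucy1b3 were named after their values were seen, as were the other list members outside the rule. A few genes that meet the rule are not reported here. The members and lists were chosen with earlier results of these data known.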

Additional observations from a re-analysis of the deposited data

How the results depend on the processing

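The share of passing cells, at 1.31 percentage points KO minus WT, ran from -0.152 (without KO3) to 2.38 when each library was left out. The carrier share, at 0.603 percentage points, ran from -6.32 to 4.68 in the same way, and was -2.08 with at least 500 genes per cell and -0.768 in cells thinned to 500 UMIs, an alternative added after seeing the data. Median UMIs per member, at -121, ran from -167 to -62.0. None of these passed under any alternative, in a design that allows no p below 0.1. Genes called between KO and WT went from 0 to 11 with no gene filter, where 13145 genes were tested, and to 1 to 6 with 1 library left out. Of the 12 named genes 2 passed with no filter and 0 to 2 with 1 library left out. All other alternatives run (stricter cell rules, doublets removed, only carriers, only non-carriers, RLE scaling, robust settings, DESeq2) called 0. Only 54 genes could be tested in non-carriers. The interaction called 1 gene, Ptgds, with no filter and 1 with only non-carriers as members, and 0 to 1 with 1 library left out. None of the 12 named genes changed sign in 184 repeats, of which 6 passed. Repeats in which a gene failed the filter are not counted. Ppp1r12c and Ogn were not tested with at least 500 genes per cell or at least 2 of the 4 pericyte genes. In non-carriers Igf2 was the only named gene tested. The causes were not tested.

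Same-numbered libraries were not shown to pair: their deviations correlated at -0.0825, -0.0369 and 0.0750. With the replicate number as a block the count of called genes was 0 and that of named genes 0. Low depth limits the non-carriers most, at 3281 to 16837 UMIs per library.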

Other observations

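Genes that passed between KO and WT only in some alternatives were named after their values were seen, and several rested on few cells. Rbp4, a retinol carrier, had 16, 0 and 32 UMIs in the members of KO1, KO2 and KO3, against 0, 0 and 0 in WT1, WT2 and WT3, and 3 members held 39 of its 48 UMIs. Igfbp2, which binds insulin-like growth factors, had 18, 0 and 41 UMIs in KO, against 0, 0 and 1 in WT, and 3 members held 41 of 60. Gas1 had 5, 0 and 18 UMIs in KO and none in WT, from 5 cells. Aebp1 had 10, 0 and 32 UMIs in KO, against 0, 1 and 1 in WT, from 10 cells. In all 4 genes KO2 was at 0 and the highest cell was in KO3.

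6330403K07Rik had 27, 1 and 5 UMIs in the members of KO1, KO2 and KO3, against 100, 1 and 3 in WT1, WT2 and WT3, and a single WT1 cell held 94 of the 137.

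By contrast, the UMIs of Hes1, Rgcc and Cd200 were spread over 93, 204 and 185 members, with 8.13%, 5.25% and 6.83% of them in the top 3 cells.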
